A study of Caenorhabditis elegans with 2 samples.

Results

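The autosomal 3' UTR candidates were the peaks of CEH-79 ChIP-seq whose summit lay in the untranslated 3' end of a protein-coding gene on chromosomes I to V of Caenorhabditis elegans. They were taken from the deposited list of candidate peaks called on both replicates together, in ce11 coordinates. The summit had to fall in an annotated 3' UTR and in no coding exon, farther than 1000 bp upstream and 200 bp downstream from every protein-coding start, and not within 500 bp of any tRNA, snoRNA or snRNA gene. This rule chose 741 of the 30000 pooled candidates, of which 24716 were autosomal. It used position alone and neither the signal of a peak nor its presence in a replicate.

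The chromatin came from whole young adults of strain OP553, genotype unc-119(tm4063) III; wgIs553, in which an inserted transgene supplies CEH-79 with GFP and FLAG at its C-terminus. Worms of both sexes were collected 66 hours after synchronization as starved L1 larvae, and sonicated chromatin was precipitated with an antibody to GFP, according to the samples' description, although their antibody field names ceh-79. There was 1 group with 2 biological replicates, so the data hold no contrast between conditions. The files give peaks and not reads, so the depth of each library is unknown, and a whole-worm peak does not say in which cells the tagged protein was recovered.

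CEH-79 is a homeobox protein, a class of transcription factors that bind DNA through a homeodomain, often at words built around TAAT. The 3' UTR is the stretch of a messenger RNA between the stop codon and the poly(A) tail, and its end is set by cleavage a short way downstream of a poly(A) signal, most often AATAAA. In the compact worm genome many neighbouring genes converge, so that the 3' end of one gene lies close to or over the 3' end of a gene on the opposite strand. Others lie in tandem, so that the 3' end of one gene precedes the start of the next on the same strand.

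The sequences under the strongest summits are shown first, because they are what the candidates share or do not share at the level of bases. The following 30 bases each surround the summit base, which is the capital, on the strand of the gene that carries the 3' UTR, in the RefSeq sequence of WBcel235 (ce11). The zig-11 window is chrV:1875717-1875746 (minus strand), that of Y71H2AM.3 is chrIII:2811513-2811542 (plus), that of tir-1 is chrIII:3869581-3869610 (minus), that of cgh-1 is chrIII:7495371-7495400 (minus), that of hrde-1 is chrIII:4172438-4172467 (minus) and that of bed-2 is chrIII:11463964-11463993 (minus). The first 5 have the highest signals of all 741 candidates, and bed-2 has the highest GC content.
zig-11: gatctcgttctcataGatcttgaatccgtg
Y71H2AM.3: aacgcgctccactgaCaatctctttgtaat
tir-1: aatgaatgtttcggaTtattattcttcaat
cgh-1: ttgcacaatttttcgAttcacaaaggatgt
hrde-1: tcttattaggagtttTcgaaggcgaaagaa
bed-2: gccgacgctctccacAacccgtgagacgtc
No AATAAA stands in these 6 stretches.

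For comparison, the next stretches come from 4 of the strongest candidates with AATAAA on the transcript strand within 50 bp of the summit, and the capitals mark that word. The windows are chrIV:3296996-3297025 (plus) for W08E12.7, chrIII:2811747-2811776 (plus) for the weaker of the 2 Y71H2AM.3 peaks, chrII:14492866-14492895 (plus) for vnut-1 and chrV:8384833-8384862 (plus) for F52E1.14.
W08E12.7: cagtttgtgtccAATAAAttgaaatcagca
Y71H2AM.3, weaker peak: tttgatggttctAATAAAtgtgaaacgcgg
vnut-1: atgtcttttttaAATAAAtttatttatttt
F52E1.14: ataatggaattgAATAAAtatttttgaaat
In Y71H2AM.3, vnut-1 and F52E1.14 the word starts 19, 31 and 26 bases before the annotated gene end, which is where poly(A) signals are usually found. In W08E12.7 it starts 217 bases before the outermost end but 19 before the end of a shorter annotated transcript.

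The candidates were mostly weak peaks with a small strong fraction. Their deposited signal, the authors' value for a peak on a scale of their own, ran from 23.3 to 222 with a median of 35.4 and quartiles of 29.2 and 46.7. The median was 32.5 for autosomal candidates in coding exons, 31.4 in introns, 32.4 in distal intergenic sequence and 32.6 over all pooled candidates, with the same exclusions applied to the exon, intron and intergenic classes. The median 3' UTR candidate stood at the percentile 59.7 of all pooled signals, against 49.4 for coding exons, 44.8 for introns and 49.2 for intergenic candidates. The shift at the median was therefore small beside the spread of the candidates themselves.

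The list that the authors call optimal, set by irreproducible discovery rate, held 22 of the 741 candidates (2.97%, exact 95% binomial interval 1.87 to 4.46%), against a background of 1.89% over all pooled candidates. The optimal list is the 566 pooled candidates with the highest signal, so this share and the signal are one measure and do not support each other. The interval reaches the background, so the share is not set apart from that of all pooled candidates. Promoter windows and short noncoding genes hold much of the optimal list, and both were kept out here. Of the autosomal candidates there, 2.37% and 18.2% were optimal. Beside the classes chosen under the same exclusions, the 3' UTR share of 2.97% stood above 41 of 6498 coding exon candidates (0.631%, 0.453 to 0.855%) and 39 of 5370 intron candidates (0.726%, 0.517 to 0.991%), whose intervals did not reach it. For distal intergenic candidates, 63 of 3950 (1.59%, 1.23 to 2.04%), the interval overlapped that of the 3' UTRs. For the few 5' UTR candidates, 1 of 81 (1.23%, 0.0313 to 6.69%), it covered the 3' UTR share. These intervals cover counting error only, neighbouring peaks are not independent, and no test between classes was made because the peaks of one list are not replicates.

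**Figure D1:**
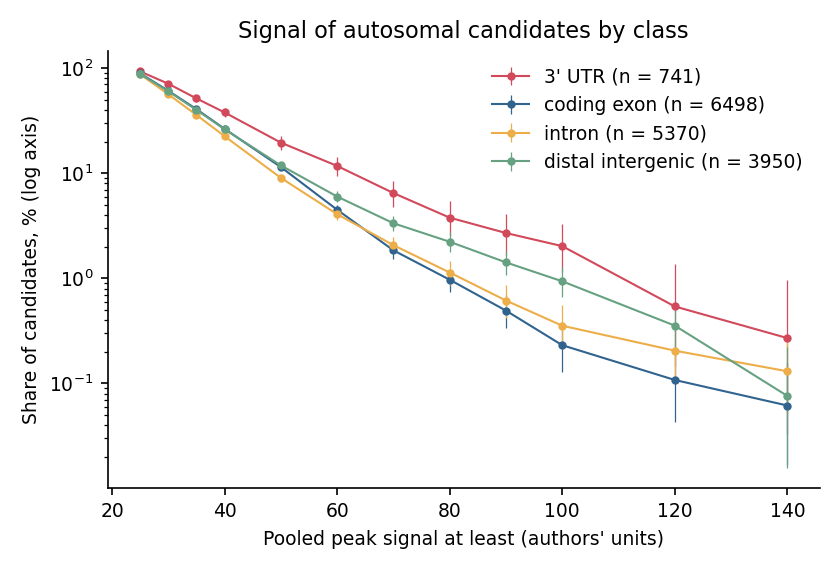
Share of autosomal candidates, in % on a log axis, whose pooled signal (x axis, authors' units) reached each value, for 3' UTR, coding exon, intron and distal intergenic candidates, with exact 95% binomial intervals as bars. At a signal of 50 the shares are 19.6% for 3' UTRs, 11.4% for coding exons, 9.03% for introns and 11.9% for intergenic candidates, and at 100 they are 2.02%, 0.231%, 0.354% and 0.937%.

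The plot of signal by class shows where the classes part. A signal of at least 50 was reached by 145 of the 741 3' UTR candidates (19.6%, 16.8 to 22.6%), against 11.4% of coding exon, 9.03% of intron and 11.9% of intergenic candidates. A signal of at least 100 was reached by 15 (2.02%, 1.14 to 3.32%), against 0.231%, 0.354% and 0.937%. Read along the ranking of all pooled candidates, 3' UTR summits made up 2.00% of the strongest 100 peaks, 4.29% of ranks 101 to 566, 4.53% of ranks 567 to 2000, and 1.75% of ranks 20001 to 30000. Ranks 20001 to 30000 (1.50 to 2.03%) thus lay below ranks 101 to 566 (2.64 to 6.55%) and 567 to 2000 (3.52 to 5.74%). The 100 strongest peaks held 2 of the 741 candidates, zig-11 and Y71H2AM.3. Their interval of 0.243 to 7.04% covers the shares of all these ranges, so the top of the ranking cannot be placed above or below them.

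Base composition differed between the classes and was weakly related to the signal. The 101 bp around the summit had a GC content of 34.6% ± 7.53 (SD, n = 741) in 3' UTR candidates, against 45.2% ± 7.28 in coding exons, 39.0% ± 9.07 in introns and 40.9% ± 9.02 in intergenic candidates. Within each of 5 ranges of GC content the 3' UTR candidates had the highest median signal of these 4 classes. Below 30% GC the median was 33.8 in 3' UTRs, against 29.1 in coding exons, 29.7 in introns and 29.8 in intergenic sequence. Above 45% GC it was 37.5, against 33.8, 33.9 and 34.97. Across candidates, Spearman's correlation of signal with GC content was 0.0854 in 3' UTRs, 0.149 in coding exons, 0.158 in introns and 0.177 in intergenic sequence, given as a description over peaks of one list. The optimal share also varied with GC content. In 3' UTRs it was 0.478% (1 of 209) below 30% GC and 8.47% (5 of 59, 2.81 to 18.7%) above 45%. Below 30% GC it lay under the intergenic share of 0.651% (3 of 461), and in the other ranges it was above those of the other classes. The part of base composition in the optimal shares was not tested beyond these ranges.

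The X chromosome had a lower median signal and fewer candidates per Mb by the same rule. It held 137 candidates in 3' UTRs, and none was optimal, which at 3 counts of the total allows a share of up to 2.19%. The autosomes had 22 of 741, and the share over all pooled candidates was 1.89%, which lies within that limit. The lack of optimal peaks thus does not set X apart from all pooled candidates. The median signal was 35.4 on the autosomes and 32.1 on X, where the strongest candidate reached 80.3. Per Mb of eligible 3' UTR sequence, which is the sequence that the rule admits, there were 409 candidates on the autosomes and 269 on X. No test between chromosomes was made. The autosomes differed little among themselves. Chromosome I held 146, II 131, III 159, IV 139 and V 166, with 6, 3, 6, 3 and 4 optimal peaks, and the density ran from 366 per Mb on II to 447 on III.

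The 22 optimal candidates lay in the 3' UTRs of 21 genes with varied roles. The strongest was in zig-11, which encodes a protein with immunoglobulin domains, at V:1875519-1875942. Its signal was 222 in the pooled list, rank 13 of 30000, with 146 in replicate 1 (rank 7) and 76.4 in replicate 2 (rank 58). Signals of separate lists are on separate scales, so only the ranks can be set side by side. Another optimal peak of zig-11, at V:1875726-1876149, had a pooled signal of 107, but overlapped the same peak in each replicate list and adds no independent evidence. Both summits lay upstream of an end that overlaps the 3' end of cct-7, a subunit gene of the chaperonin CCT.

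On chromosome III, the peak in Y71H2AM.3 (III:2811316-2811739) had a signal of 144 and ranked 53 in replicate 1 and 104 in replicate 2. A weaker peak of that gene, with a signal of 84.9, was not optimal and overlapped the same replicate peaks. The peak in tir-1, the worm SARM1, an adaptor of innate immunity (III:3869383-3869806), had a signal of 132, and its summit lay 5 bp before the annotated end of the gene, with the 3' end of the ribosomal protein gene rpl-3 2 bp further on. It was strong in replicate 1 (rank 55) and much lower in replicate 2 (rank 1274). The peak in cgh-1, which encodes a germline DEAD-box RNA helicase (III:7495320-7495428), had a signal of 125 and ranks of 30 and 172. It was the only candidate that was not 424 bp wide: its width was 109 bp. The peak in hrde-1, the nuclear Argonaute of heritable RNA interference (III:4172240-4172663), had a signal of 120 with ranks of 260 and 207.

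The next optimal candidates, on chromosomes II to IV, lay within a narrow range of signal. The peak in wsp-1, the worm WASP regulator of actin (IV:8188704-8189127), had a signal of 110.3 and its summit 12 bp from the gene end. The peak in par-5, a 14-3-3 protein needed for polarity of the zygote (IV:11820481-11820904), had a signal of 109. The peak in lin-29, the zinc finger factor of the larva-to-adult switch (II:11917677-11918100), had a signal of 107 and ranked 908 in replicate 1 but 124 in replicate 2. It was stronger by rank in replicate 2, the reverse of tir-1. The peak in bed-2, which encodes a BED zinc finger protein (III:11463766-11464189), had a signal of 109, and its window had a GC content of 67.3%, against 38.6% at the median of the 22. The gene W08E12.7 (IV:3296763-3297186) held a peak with a signal of 112.

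The remaining optimal candidates outside chromosome I had signals below those. The peak in hda-2, a histone deacetylase gene (II:8020637-8021060), had a signal of 106, with ranks of 165 in replicate 1 and 1877 in replicate 2. The peak in ntl-3, a subunit gene of the CCR4-NOT deadenylase (III:11831013-11831436), had a signal of 91.6, and ranked 7359 in replicate 1 and 192 in replicate 2. These ranks are far apart, and for ntl-3 replicate 1 alone would place the peak well outside the strongest 566. The peak in nxf-1, the mRNA export receptor (V:14411998-14412421), had the lowest signal of the optimal candidates, 89.4, with ranks of 538 and 1000. The peak in B0238.9 (V:5275636-5276059) had a signal of 104 and that in F13H8.5 (II:6252757-6253180) one of 103.

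Chromosome I held the last 6 optimal candidates, with signals of 113 in ekl-7, 98.7 in daf-16, 95.2 in rsa-1, 93.1 in usp-3, 90.9 in Y71F9AL.10 and 89.9 in cyc-1. The gene daf-16 encodes the FOXO factor of insulin signalling, rsa-1 a regulatory subunit of protein phosphatase 2A, usp-3 a ubiquitin-specific protease, and cyc-1 the cytochrome c1 of the respiratory chain. Their ranks in replicate 1 ran from 164 to 914 and in replicate 2 from 341 to 4450. Y71F9AL.10 ranked 271 in replicate 1 and 4450 in replicate 2.

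**Figure D2:**
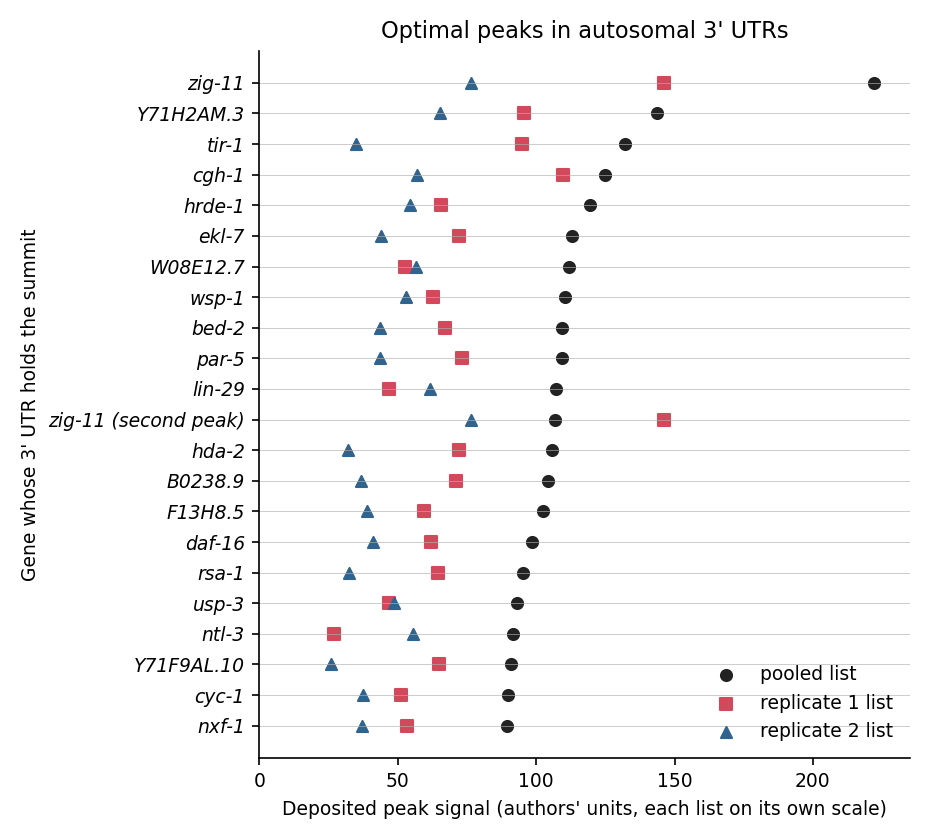
Deposited signal (x axis, authors' units, each list on its own scale) of the 22 optimal candidates in autosomal 3' UTRs, named by gene down the page, in the pooled list (circles), the replicate 1 list (squares) and the replicate 2 list (triangles). The pooled signal runs from 222 in zig-11 to 89.4 in nxf-1. The 2 zig-11 peaks share their replicate values.

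Just below the lowest optimal signal of 86.5 in the whole list stood lin-35, the worm retinoblastoma gene, with a signal of 85.6 and ranks of 2171 in replicate 1 and 466 in replicate 2. It was followed by the weaker peak of Y71H2AM.3, then Y43F8B.3 (84.0), F10G7.5 (83.1), spk-1, an SR protein kinase gene (82.9), and tlp-1, a zinc finger gene (80.02). The peaks of acr-16, a nicotinic acetylcholine receptor subunit gene, gei-17, a SUMO ligase gene, vnut-1, the vesicular nucleotide transporter gene, and F52E1.14 had signals of 79.5, 78.8, 77.3 and 76.9. Of these 10 strongest candidates that were not optimal, 8 ranked higher in replicate 2 than in replicate 1. The optimal candidates went the other way at the median, with rank 265.5 in replicate 1 and 535.5 in replicate 2. The share over all matched candidates was not counted, so the 8 of 10 are not read as a trait of these peaks.

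How many candidates were seen in both replicates depended on what counted as a match. A candidate of each replicate list overlapped 463 of the 741 by at least 1 bp (62.5%, 58.9 to 65.98%), against 49.6% of coding exon, 45.8% of intron, 46.3% of intergenic and 49.5% of all pooled candidates. The 3' UTR share was 47.8% where 50% of the peak had to be overlapped, and 30.5% where a summit of each replicate had to lie within 100 bp. By the 1 bp rule, replicate 1 matched 608 and replicate 2 577, with 145 matched only in replicate 1, 114 only in replicate 2 and 19 in neither. Candidates matched in both had a median signal of 41.3, those in replicate 1 alone 31.6, those in replicate 2 alone 29.0 and those in neither 25.1. Matched candidates were thus the stronger ones, and the higher matched share is not separate from the higher signal. Nearby candidates also shared matches, since 52 replicate 1 peaks and 48 replicate 2 peaks each matched 2 or more candidates.

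The ranks in the replicates were loosely related. Across the 463 candidates matched in both, Spearman's correlation of the replicate signals was 0.366, and over the 7553 other matched autosomal candidates outside promoters and short noncoding genes it was 0.272, both as descriptions across peaks that share one control alignment. Of the 22 optimal candidates, 9 were among the strongest 566 of both replicates, 8 of replicate 1 alone, 4 of replicate 2 alone and 1 of neither. Their median rank was 265.5 in replicate 1 and 535.5 in replicate 2. Of the candidates that were not optimal, 7 were among the strongest 566 of both replicates, but 2 of these, the weaker Y71H2AM.3 peak and the peak of mcm-4, the convergent neighbour of ekl-7, overlapped the same replicate peaks as an optimal candidate. One of the other 5 lay in ife-3, a gene of the cap-binding protein eIF4E (V:6394-6817). The strongest replicate peaks that overlapped it ranked 242 in replicate 1 and 410 in replicate 2. The candidate itself ranked 4810 in the pooled list with a signal of 47.1. Whether the replicate peaks of these 5 were shared with pooled candidates of other classes was not counted. Their replicate ranks are therefore not read as the strength of the candidates themselves.

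**Figure D3:**
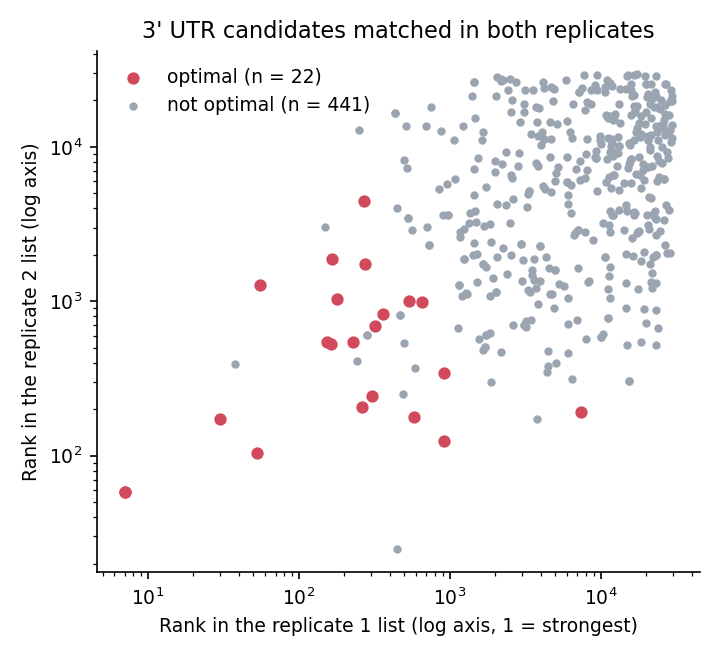
Rank of each 3' UTR candidate matched in both replicates by signal in the replicate 1 list (x) and the replicate 2 list (y), on log axes with 1 the strongest, for the 22 optimal candidates (large points) and the 441 others (small points). The optimal candidates gather towards the lower left, and those far from equal ranks include ntl-3 (7359 and 192), tir-1 (55 and 1274) and Y71F9AL.10 (271 and 4450).

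The summits lay somewhat farther from the gene end than the 3' UTR sequence available. Of the autosomal 3' UTR sequence, 1.81 Mb passed the rule, and the density of 409 candidates per Mb equalled that in coding exons (409), against 239 in introns, 205 in distal intergenic sequence and 279 over all sequence that passed. The density of optimal peaks was 12.1 per Mb in 3' UTRs, against 2.58 in coding exons, 1.73 in introns and 3.28 in intergenic sequence. The summit lay at a median of 178 bp before the outermost annotated end of the gene (quartiles 72 and 365), against 144 bp (56 and 354) for all eligible bases. Within 100 bp of the end lay 32.5% of candidates and 39.5% of eligible bases. The optimal candidates had a median distance of 209 bp, and 10 of the 22 lay between 201 and 400 bp. So the summits were not gathered at the gene end itself. The comparison was not matched for 3' UTR length, with a median of 394 bp in genes with a candidate and 119 bp in those without.

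**Figure D4:**
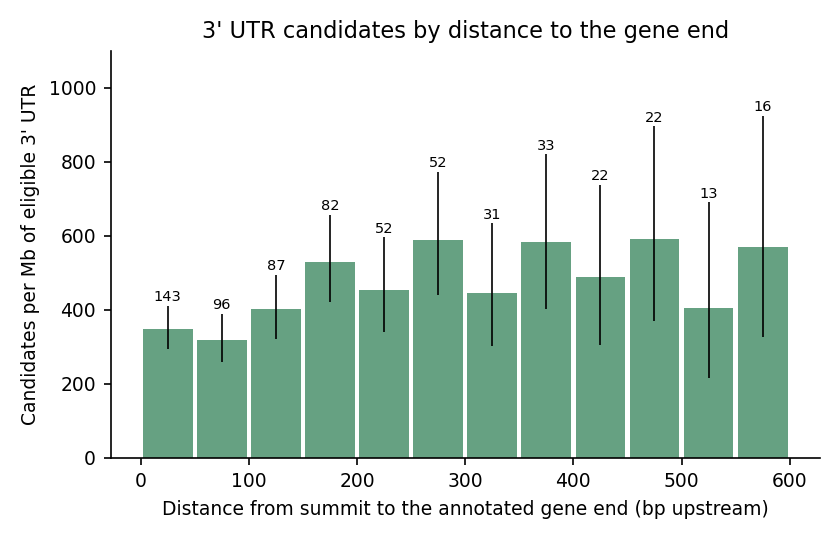
Density of 3' UTR candidates per Mb of eligible 3' UTR sequence (y) in 50 bp steps of distance from the summit back to the outermost annotated gene end (x), with the number of candidates above each bar and 95% counting intervals. The first 2 steps have 348 and 319 candidates per Mb, and the steps from 150 to 300 bp have 529, 455 and 590.

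Resolution limits how finely this can be read. The peak was 424 bp wide in 740 of 741 candidates with the summit at its centre, and a median of 71.9% of each peak lay in 3' UTR and 15.8% in coding sequence. For 279 of the 741 an end of another isoform was nearer than the outermost end. In bli-4, which encodes a proprotein convertase with several 3' ends, the 4 candidates lay 6633 to 11056 bp before the outermost end but 291 to 1103 bp before the nearest annotated transcript end.

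Long 3' UTRs held candidates more often than short ones. Of 9993 autosomal genes with an eligible 3' UTR base, 663 held a candidate (6.63%), and 67 held several, with W06H8.6 and bli-4 reaching 4 each. The share of genes with a candidate was 2.24% for 3' UTRs of up to 200 bp, 10.1% for 201 to 400 bp, 20.5% for 401 to 800 bp and 28.6% for longer ones. Per Mb of eligible sequence the same classes held 268, 423, 509 and 494 candidates, so the longer classes lay above the shortest also per base. The optimal candidates were placed 2, 2, 13 and 5 over these classes. Signal itself barely followed the length, with a Spearman correlation of 0.0488 over the 741 candidates.

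The strongest candidates lay mostly in genes whose downstream neighbour converges on them. The next protein-coding gene downstream converged on the candidate's gene for 522 of 741 (70.4%) and lay in tandem for 217 (29.3%), while 2 had none. Of the eligible bases, 61.9% were in genes with a convergent neighbour, so there were 465 candidates per Mb with a convergent neighbour and 315 with a tandem one, a ratio of 1.48 (95% interval 1.26 to 1.73, counting error only). Of the 22 optimal candidates, 20 had a convergent neighbour and 2, in cgh-1 and W08E12.7, a tandem one. The optimal share was 3.83% (2.36 to 5.86%) with a convergent neighbour and 0.922% (0.112 to 3.29%) with a tandem one, and these intervals overlap. The median signal was 36.4 with a convergent and 33.5 with a tandem neighbour.

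Candidates were densest at close convergent ends. Where the convergent gene overlapped the end, there were 557 candidates per Mb, 281 in all with 11 optimal. At gaps of 1 to 250 bp there were 520 per Mb, at 251 to 1000 bp 354, and beyond 1000 bp 313, with 4, 4 and 1 optimal candidates. In all, 19 of the 22 optimal candidates had a convergent neighbour within 1000 bp. With a tandem neighbour there were 384 candidates per Mb where it overlapped the end (9 candidates), 209 at 1 to 250 bp (4), 419 at 251 to 1000 bp (39) and 298 beyond 1000 bp (165). At 251 to 1000 bp the tandem density was thus above the convergent one, and beyond 1000 bp both were close, so the ratio of 1.48 did not hold at each gap. None of the 52 tandem candidates within 1000 bp was optimal, which allows a share of up to 5.77%, and beyond 1000 bp 2 were.

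The rule itself removes most tandem ends that are close to another gene, because the 3' end then lies in the promoter window of the next gene. With that exclusion lifted, 21 of 540 candidates with a convergent neighbour (3.89%, 2.42 to 5.88%) and 8 of 519 with a tandem one (1.54%, 0.668 to 3.01%) were optimal. Within 1000 bp the counts were 20 of 475 (4.21%) and 6 of 348 (1.72%). Candidates per Mb within 1000 bp were then 498 with a convergent and 360 with a tandem neighbour. The convergent values stayed the higher ones, with overlapping intervals of the optimal share.

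**Figure D5:**
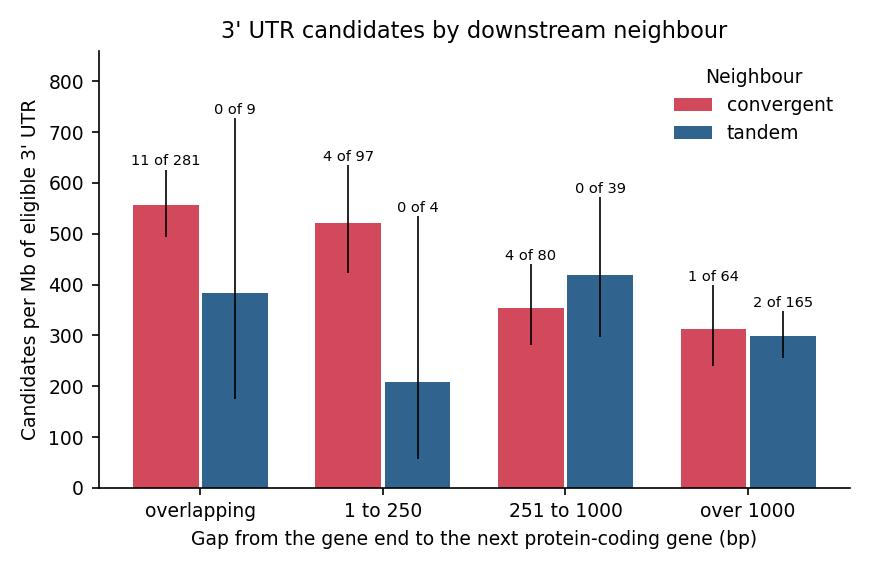
Density of 3' UTR candidates per Mb of eligible 3' UTR sequence (y) by the gap to the next protein-coding gene (x), for convergent (left bars) and tandem (right bars) neighbours, with 95% counting intervals and the number of optimal candidates of all candidates above each bar. Convergent genes that overlap the end have 557 candidates per Mb and those more than 1000 bp away 313, while tandem genes more than 1000 bp away have 298. At 251 to 1000 bp the convergent bar stands at 354 and the tandem bar at 419, on 80 and 39 candidates, and the tandem bars at smaller gaps rest on 9 and 4.

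The convergent neighbours of the optimal candidates included rpl-3 beside tir-1, cct-7 beside zig-11, the prohibitin gene phb-2 beside F13H8.5, the splicing factor gene rsp-8 beside ntl-3 and the replication helicase gene mcm-4 beside ekl-7. These were picked from the neighbours of 19 genes. Others were gnrr-2 beside nxf-1, pct-1 beside wsp-1, hmg-12 beside lin-29, zyg-11 beside hda-2 and C16C10.4 beside hrde-1. Farther away were plr-1, 767 bp from the end of bed-2, and gpx-8, 5411 bp from that of daf-16. Counted over the 17 gene lists used here, the convergent neighbour was on a list for 3 of 19 genes with an optimal candidate (15.8%), against 38 of 467 genes with any candidate (8.14%) and 471 of 6510 eligible genes (7.24%). A count of 3 is too small to set these shares apart. An expression measurement was not used here.

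The candidates' genes were spread over many functions. On the proteasome list, 7 of 16 genes with an eligible 3' UTR held a candidate (43.8%, 19.8 to 70.1%), against 6.63% of all such genes, none of them optimal. The strongest were in rpt-6, an ATPase subunit gene (signal 55.8), and rpn-6.1, a lid subunit gene (51.4). The candidates of 2 of the 7, rpn-5 (36.3) and pbs-1 (45.7), overlapped the same replicate peaks as stronger candidates in their convergent neighbours, F10G7.5 (83.1) and K08D12.4 (74.5). On the chromatin list 11 of 50 genes held one (22%, 11.5 to 35.96%), with hda-2 and lin-35 strongest, and on the splicing list 7 of 36 (19.4%, 8.19 to 36.02%), with the SR protein gene rsp-3 (66.2) and ptb-1 (47.5) strongest. On the germline RNA list, 6 of 38 genes held one (15.8%, 6.02 to 31.2%), led by cgh-1 and by gld-2, a cytoplasmic poly(A) polymerase gene (54.3). Genes with longer 3' UTRs held candidates more often, and the part of length in these shares was not tested.

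Several other lists had shares of like size, with wide intervals. Translation factors had 3 of 16 genes (18.8%, 4.05 to 45.6%), led by eif-2Bdelta (52.3) and the eIF4E gene ife-3 (47.1). Oxidative phosphorylation had 4 of 25 (16%, 4.54 to 36.1%), with cyc-1 (89.9) and cox-4 (48.0), and muscle contractile proteins also 4 of 25, with the troponin I gene tni-4 (48.5) and the actin gene act-3 (44.5). The heterochronic list had 2 of 6, lin-29 and lin-66 (69.3). The share was close to that of all genes on the next lists. The neuronal list had 13 of 176 (7.39%), led by acr-16 and the syntaxin gene unc-64 (74.8). Nuclear hormone receptors had 9 of 153 (5.88%), led by nhr-66 (73.9) and nhr-90 (48.2).

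Homeobox genes, the family of CEH-79 itself, had 5 of 58 (8.62%, 2.86 to 18.98%), led by ceh-38 (63.9) and ceh-27 (33.5). Chaperones had 2 of 33 (6.06%, 0.743 to 20.2%), dnj-29 (65.0) and pfd-3 (33.7). Cleavage and polyadenylation factors had 1 of 12 (8.33%, 0.211 to 38.5%), cpsf-1 (27.9). Cuticle collagens had 1 of 104 (0.962%, 0.0243 to 5.24%), col-109 (43.6), an interval below the 6.63% of all eligible genes. None was found among 38 cytosolic ribosomal protein genes (which allows a share of up to 7.89%), 7 histone genes (up to 42.9%) and 1 vitellogenin gene with an eligible 3' UTR. Of the 80 ribosomal protein genes on the autosomes, these 38 alone have an eligible 3' UTR base.

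Of the words searched in the 101 bp around the summit, the poly(A) signal was common, as in 3' UTR sequence at large. AATAAA on either strand was found at 257 of 741 candidates (34.7%), against 7.11% of coding exon, 16.4% of intron, 15.7% of intergenic and 14.6% of all pooled candidates. Consecutive windows of the same length over all eligible 3' UTR sequence held it in 41.0% of 17959 windows. On the transcript strand alone the shares were 15.9% of candidates and 21.4% of windows. Both shares were thus lower at the summits than over all eligible 3' UTR sequence, and the GC content was higher, 34.6% ± 7.53 at the candidates against 31.4% ± 7.28 in the windows (SD over 741 candidates and 17959 windows). The windows come mostly from genes without a candidate, whose 3' UTRs are shorter, with a median of 394 bp in genes with a candidate and 119 bp in those without. Among the candidates, AATAAA was found at 60.5% in 3' UTRs of up to 200 bp and at 23.8% in those over 800 bp, so the 2 shares are not matched for length. Candidates with AATAAA had a median signal of 35.1 and those without it 35.5, and 5 of the 22 optimal candidates had it.

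The other words were rarer. TAATTA, its own reverse complement and a core that many homeodomains bind, was found at 6.21% of candidates, 7.44% of eligible windows and 2.95% of all pooled candidates. GAGAGA on either strand was found at 9.99%, 7.49% and 8.20%, and GTTCGA, a word of the internal promoter of tRNA genes, at 1.89%, 2.73% and 4.70%. None of these 4 words contains another, GTTCGA and GAGAGA can share the 2 bases GA and other pairs at most 1, and a match is a description of the letters in the window.

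Some candidates lay near or under other annotated genes. A noncoding gene other than the classes left out, or a pseudogene, lay within 500 bp of 67 candidates (9.04%), with 2 optimal, against 674 without one, with 20 optimal. The optimal shares were 2.99% and 2.97%. Such a gene lay near 15.6% of all pooled candidates, 5.52% of coding exon, 11.5% of intron and 32.7% of intergenic candidates, so the 9.04% is not particular to 3' UTRs. A coding gene on the opposite strand covered the summit itself in 47 candidates, none of them optimal, which allows a share of up to 6.38%. How much eligible 3' UTR sequence lies under such a gene was not counted. The exclusions removed 320 further 3' UTR summits in promoter windows (7 optimal, median signal 34.7) and 16 near short noncoding genes (2 optimal, median signal 47.6).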

How the data were processed

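ChIP-seq peak lists of 2 biological replicates of 1 strain were read as deposited, in ce11. Per the notes deposited with the files, candidates were called on each replicate and on both pooled with a single control alignment. The optimal list came from them by the irreproducible discovery rate. The programs for alignment and peak calling were not given in the sources used. The signal of a peak is the authors' deposited value and was compared between lists only by rank. The deposited summit offset, another column, gave the summit. The ce10 lists were not used here. Without read counts in the lists, the depth is unknown.

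Annotation was Ensembl release 115 of WBcel235, which has ce11 coordinates, and sequence was RefSeq's. Coordinates are 1-based. Summits were put in the first class that held them, in the order promoter window and short noncoding distance (excluded), coding exon, 3' UTR, 5' UTR, other exon or intron of a protein-coding gene, intergenic. "Eligible" bases passed the same rule as the summits. The gene of a summit was the one with the nearest end. Replicate matches needed 1 bp of overlap, and the strongest overlapping replicate peak gave the rank and signal. Sequences shown exclude chromosome I. Words were searched 50 bp to each side of the summit on both strands.

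Shares have exact 95% binomial (Clopper-Pearson) intervals and a count of 0 a limit of 3 counts. That limit is lower than the upper end of the exact interval. It is 2.19% against 2.66% for X 3' UTRs and 7.89% against 9.25% for ribosomal protein genes. Intervals and limits cover counting error only. With 1 group, no test between conditions exists, and none was made between classes of peaks. The genes named were those of all optimal candidates, of the 10 strongest others, of up to 2 candidates of each of 17 gene lists by signal, and up to 5 genes with 3 or more candidates. Neighbours, rpn-5, pbs-1, mcm-4 and the ranks of ife-3 were named after their values were seen. The members, lists and rules were chosen with earlier results of these data known.

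Alternatives covered the promoter window, noncoding distances, peak membership, 1 candidate per gene, thresholds, matching, gene ends, neighbours, word windows and each replicate alone. The classification was tested on simulated data. Tools were scipy 1.17.1, pandas 2.3.3, numpy 2.4.6 and matplotlib 3.10.9 under Python 3.11.15.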

Additional observations from a re-analysis of the deposited data

How the results depend on the processing

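Of 78 alternative values, 61 stayed within the 95% interval of the reported one and 17 moved out of it. The cause was not tested where no reason follows from the alternative itself. With no promoter exclusion the density over all eligible sequence was 1.34 times (1.47 as reported), the median distance to the gene end 160 bp (178 as reported) and the convergent share 50.9% (70.4% as reported, with 43.2% of the bases then eligible convergent). With a window of 2000 bp upstream and 500 bp downstream the convergent share was 79.1% (71.4% of bases), and with genes of any type as neighbours 75.4%. The ratio of convergent to tandem candidates per Mb, whose alternatives were chosen after seeing the data, ran from 1.37 to 1.53, and the convergent share of the optimal candidates from 72.4% to 95.7%. The value of 95.7% is for the strongest 566 peaks of replicate 1 alone, used in place of the optimal list. The median distance was 160 bp with 1 candidate per gene, 213 bp where at least 50% of the peak had to lie in 3' UTR, and 161 bp to the nearest transcript end. The optimal share was 1.75% for the stronger 50% of the optimal list and 6.48% for the strongest candidates in 2 times its number, by construction. The share matched in both replicates was 47.8% where 50% of the peak had to be overlapped and 30.5% for replicate summits within 100 bp. The AATAAA share was 20.8% within 25 bp, 55.2% within 100 bp, 15.9% on the transcript strand and 29.9% where at least 50% of the peak lay in 3' UTR.

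With each replicate left out in turn, candidates were chosen anew from the remaining list, 751 without replicate 1 and 752 without replicate 2. In place of the optimal list, the strongest 566 peaks of that list were used. The median signal percentile was 55.97 to 57.97 (59.7 as reported), the density ratio 1.485 to 1.487 and the distance 162.5 to 166 bp. The convergent share was 68.97 to 71.1%, the ratio of convergent to tandem candidates per Mb 1.37 to 1.53 and the AATAAA share 34.97 to 35.4%. Of the candidates, 3.06 to 3.595% were among the strongest 566, and 81.5 to 95.7% of those had a convergent neighbour. These peaks were cut by rank alone and do not repeat the authors' call. No paired analysis was possible because the series has 1 group and no test was made. Limits are the unknown depth, the 424 bp width of the peaks, which spans 3' UTR and flanking sequence, and replicate agreement that rests on 2 lists called against one control. A further limit is that 118 candidates overlapped another of the 741, and overlap with other pooled candidates was not counted.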
